A study of Mus musculus with 14 samples.

Results

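The Klhl (Kelch-like) genes were taken as every gene whose only symbol on the array is Klhl followed by a number, and 36 of the 19931 named genes met that rule. They came from 38 probe sets, and for Klhl31 and Klhl32, which have 2 probe sets each, the one with the higher mean over all arrays was kept. The family was looked at because Klhl23 lay higher in all 3 mutant groups than in the reference hearts, so that difference is described here and not tested. The other 35 members were chosen by name alone. Klhl17 is in the reference gene table but has no probe set with a single symbol, and it was not analysed here.

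Klhl proteins join a BTB domain, which binds the scaffold Cullin 3 (Cul3), to a Kelch propeller, which holds a substrate. The pair forms a ubiquitin ligase in which the Klhl protein chooses what is marked. Several members are best known from striated muscle, where Klhl31, Klhl40 and Klhl41 are needed to keep the myofibrils in order and mutations of KLHL40 and KLHL41 cause nemaline myopathy. Others act in mitosis, in blood pressure control through the WNK kinases, in secretion, in neurons or in germ cells.

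The study asked how the Iroquois transcription factors Irx3 and Irx5 act together or against each other in the heart. RNA of mouse embryo hearts at E12.5 (the embryonic day) was amplified, and each of 14 samples was hybridised to its own array of the Affymetrix Mouse Gene 1.0 ST design. The reference genotype was Irx5+/-, with 3 arrays. Hearts without Irx3 and with 1 working Irx5 allele (Irx3-/-;Irx5+/-) had 4 arrays, those without Irx5 (Irx5-/-) had 3, and double mutant hearts (Irx3-/-;Irx5-/-) had 4. Every group carried at least 1 mutated Irx5 allele, so no comparison has a wild-type heart in it. The labels name neither the kind of allele nor the embryo behind each array. The p-values therefore measure only the spread between these samples, which may be technical.

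Over all 28763 probe sets, array medians lay between 7.89 and 7.99 log2 units, and arrays correlated with each other at 0.962 to 0.987. One description label contradicts its array: the array labelled Irx3-/-;Irx5+/- replicate 4 carries that genotype in its title and characteristics but is described as Irx5-/- in its text. Its Irx3 signal was 8.17, against 7.87 to 7.93 on the other arrays of its group, 8.14 to 8.25 in Irx5-/- hearts, 7.60 to 7.86 in double mutants and 8.43 to 8.53 in the reference. Irx5 signal did not separate the genotypes: it was 8.19 to 8.41 in the reference and 7.52 to 8.43 in the double mutant. The sources used here do not say whether either probe set lies in deleted sequence. Many differences and list values that use replicate 4, but not all, are also given without it. All 9 cardiomyocyte markers were measured. Tnnt2, cardiac troponin T, was at 12.85 to 13.71, while Ryr2, Myh6 and Nkx2-5 went as low as 8.43, 8.56 and 8.81. The mean of this list, relative to its average over arrays, was -1.29 to 0.09 in the reference, -0.34 to 0.32 in Irx3-/-;Irx5+/-, -0.20 to 0.56 in Irx5-/- and 0.15 to 0.46 in double mutants. The skeletal muscle list, with the defining factors Myod1, Myog and Myf5 in it, had a mean that stayed within -0.16 to 0.11 of its average over arrays.

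Klhl23 signal was 8.34, 8.60 and 8.60 on the 3 reference arrays. It was 9.45, 8.90, 9.35 and 9.19 in Irx3-/-;Irx5+/- hearts, 9.36, 9.80 and 9.25 in Irx5-/- hearts and 9.52, 9.68, 9.48 and 9.51 in double mutant hearts. Every mutant array lay above every reference array, and the lowest mutant array was replicate 2 of Irx3-/-;Irx5+/-. Of all 19931 named genes, 160 (0.803%) had that ordering, and Klhl23 was the only one among the Klhl genes. Since the ordering is what brought Klhl23 to attention, it is given as a description.

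Against the reference mean of 8.51 ± 0.15 (SD, n = 3), Klhl23 was higher by 0.71 ± 0.15 log2 units (SE) in Irx3-/-;Irx5+/- hearts, by 0.96 ± 0.16 in Irx5-/- hearts and by 1.04 ± 0.15 in double mutants. These are folds of 1.63, 1.94 and 2.05. Without replicate 4 the first difference was 0.72. Over all alternatives tried the 3 differences ran from 0.62 to 0.82, from 0.79 to 1.17 and from 0.95 to 1.26. The interaction (double mutant minus Irx5-/-, less the difference of Irx3-/-;Irx5+/- from the reference) was -0.63 ± 0.21 (SE). Without replicate 4 it was -0.64. Both values use the reference arrays that served to choose the gene and have no test.

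The log2 differences among the mutant groups do not use the reference arrays, and they were tested. Their SE, p-values and intervals do use those arrays, because the fit took 1 variance per gene from all arrays. The mutant arrays were also part of the ordering that brought Klhl23 to attention. The p-values and intervals for Klhl23 are therefore not independent of its choice. The 4 groups stood in the order Irx5+/-, Irx3-/-;Irx5+/-, Irx5-/-, double mutant, and none of the 3 mutant groups differed from another after adjustment. Klhl23 in double mutants was above Irx3-/-;Irx5+/- by 0.33 ± 0.14, with no overlap between the 4 arrays of each (limma p 0.0343, adjusted p 0.624; 95% interval 0.03 to 0.63). Without replicate 4 the difference was 0.32, and 0 of the Klhl genes, Klhl23 included, were higher at an unadjusted limma p under 0.05. Of all named genes, 2.64% were higher without overlap in that comparison. The double mutant was above Irx5-/- by 0.08 (95% interval -0.25 to 0.40), and Irx5-/- was above Irx3-/-;Irx5+/- by 0.25 (95% interval -0.07 to 0.57; 0.24 without replicate 4). The comparison of the double mutant with Irx5-/- has no settled direction, because without replicate 3 of Irx5-/- it became -0.03.

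**Figure D1:**
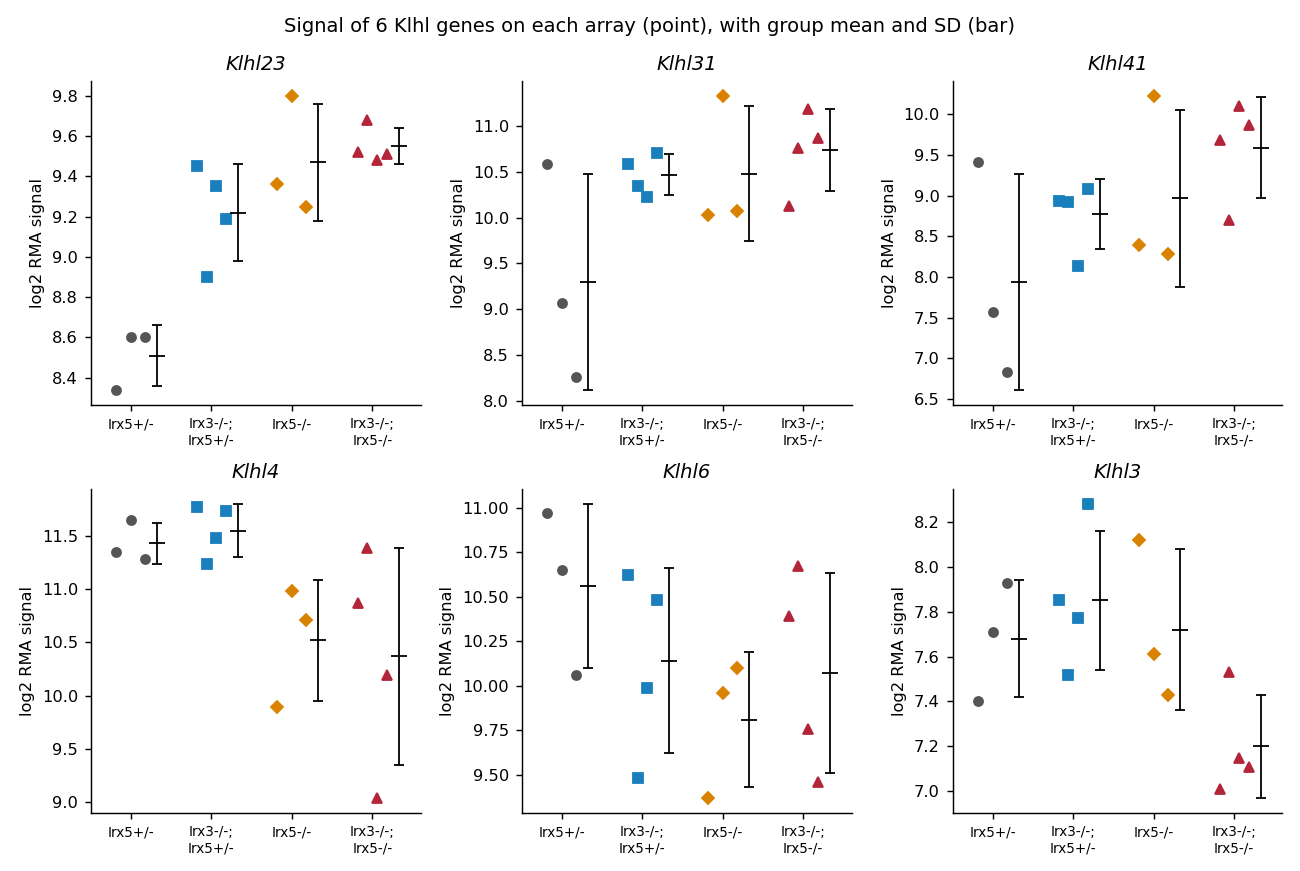
Log2 RMA signal (y axis, a separate scale for each gene) of Klhl23, Klhl31, Klhl41, Klhl4, Klhl6 and Klhl3 on each of the 14 arrays (points) by genotype (x axis), with the group mean and SD beside the points. The 3 reference arrays of Klhl23 lie at 8.34 to 8.60, below the lowest mutant array at 8.90, while the groups of Klhl31, Klhl41 and Klhl6 overlap.

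Klhl23 lies on chromosome 2, where it shares a neighbourhood with Klhl41, and 4 protein-coding genes stand between the pair in the RefSeq gene table (assembly GRCm38.p6). The promoters of Klhl23, Klhl41 and the muscle member Klhl31 are printed because the first is the gene the family was chosen for and the other two tracked the sarcomere genes across arrays. Each is the 250 bases before a RefSeq transcription start, on the plus strand of GRCm38.p6, 5′ to 3′. Capitals mark matches on either strand to the binding motif of the muscle factor family MEF2 and to the E-box CANNTG, which muscle and other basic helix-loop-helix factors bind. RefSeq lists 3 starts for Klhl23, and the most upstream one is shown (chr2:69821691-69821940). The Klhl31 window is chr9:77636482-77636731 and the Klhl41 window is chr2:69669870-69670119.
Klhl23: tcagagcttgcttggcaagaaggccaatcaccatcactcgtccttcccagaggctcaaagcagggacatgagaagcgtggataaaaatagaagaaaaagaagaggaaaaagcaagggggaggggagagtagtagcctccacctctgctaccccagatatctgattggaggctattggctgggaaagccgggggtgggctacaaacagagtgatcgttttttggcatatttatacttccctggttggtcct
Klhl31: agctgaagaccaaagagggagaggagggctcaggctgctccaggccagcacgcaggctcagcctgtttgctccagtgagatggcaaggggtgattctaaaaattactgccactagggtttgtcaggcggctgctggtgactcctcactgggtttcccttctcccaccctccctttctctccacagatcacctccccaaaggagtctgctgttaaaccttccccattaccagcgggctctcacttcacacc
Klhl41: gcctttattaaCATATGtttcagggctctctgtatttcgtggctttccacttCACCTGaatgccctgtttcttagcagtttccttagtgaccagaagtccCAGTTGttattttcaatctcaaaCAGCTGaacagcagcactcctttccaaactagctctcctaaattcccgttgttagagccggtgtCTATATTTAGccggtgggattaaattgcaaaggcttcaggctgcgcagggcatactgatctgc

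The Klhl41 window holds 1 MEF2 match, which starts at position -63, and several E-boxes, whereas the letters of neither motif are in the Klhl23 and Klhl31 windows shown. At the other Klhl23 starts, whose windows are not shown, an E-box stands at -110 (CATTTG) and at -86 (CACCTG). Promoters of 30 members were found, 40 in all. Of these, 2 hold a MEF2 match, those of Klhl41 and of Klhl33, and 24 hold an E-box. Among all 32851 promoters of the same length, 2.92% hold a MEF2 match and 66.2% an E-box. A palindrome bound by Iroquois proteins, ACANNTGT, is in 6.31% of all promoters and, among the members, in that of Klhl41 alone. A match describes letters in the window, not a bound site.

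The neighbours of Klhl23 were measured on the same arrays. Immediately before it in the gene order lie Phospho2, Ccdc173 and Ppig, and immediately after it lie Ssb, Mettl5 and Ubr3. Ppig, a nuclear prolyl isomerase, differed from the reference by -0.01, 0.05 and 0.06 in Irx3-/-;Irx5+/-, Irx5-/- and double mutant hearts, and Ssb, the La RNA-binding protein, by -0.02, -0.02 and 0.05. Phospho2 was higher by 0.61 ± 0.27 in Irx5-/- hearts, whose arrays did not overlap the reference (limma adjusted p 0.445). Of all named genes, 6.71% were higher without overlap in that comparison. In Irx3-/-;Irx5+/- hearts and double mutants Phospho2 was higher by 0.11 and 0.12. Mettl5, an RNA methyltransferase, was higher by 0.37 ± 0.17 in double mutants (adjusted p 0.37). None of the 6 flanking genes passed the test against the reference in any mutant group. Of all named genes, 0%, 0% and 0.0201% passed in those comparisons, so this count cannot set the flanking genes apart from other genes. Klhl23, for which those differences were not tested, stood 0.71 to 1.04 higher. Fastkd1, between Klhl41 and Ppig, was higher by 0.52 ± 0.30, 0.39 ± 0.32 and 0.56 ± 0.30 (limma adjusted p 0.999, 0.662 and 0.442).

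**Figure D2:**
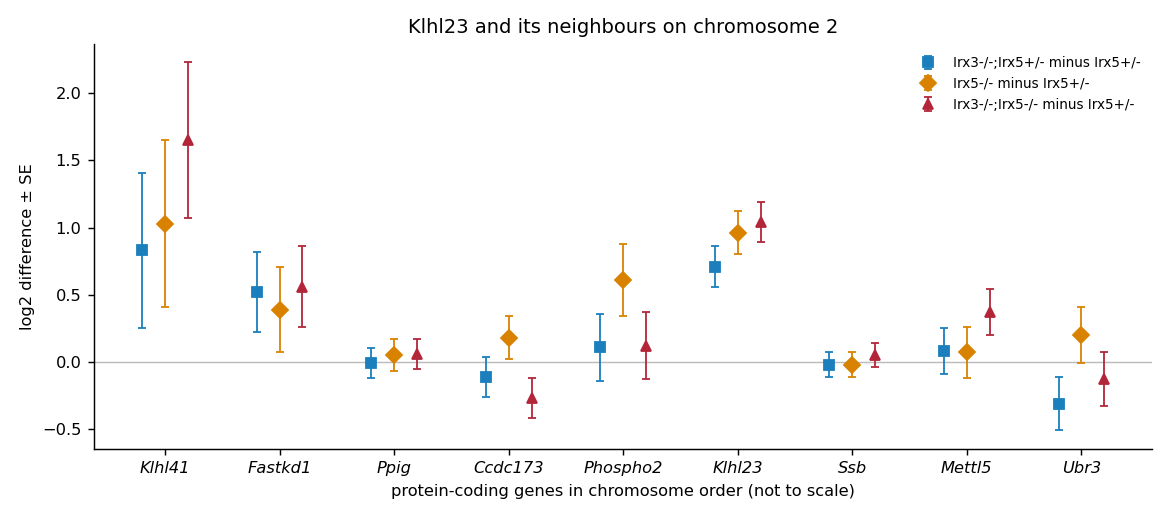
Log2 difference from the Irx5+/- reference (y axis, with SE) for Klhl23, Klhl41 and the 7 protein-coding genes between and after them in chromosome order (x axis, not to scale). Klhl23 stands at 0.71 to 1.04 in the 3 mutant groups, Phospho2, directly before it, stands at 0.11, 0.61 and 0.12, Ssb, directly after it, and Ppig stay within -0.02 to 0.06, and Klhl41 has long error bars (SE 0.58 to 0.62). Fastkd1 stands at 0.52, 0.39 and 0.56.

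The muscle members were Klhl31, Klhl41, Klhl40, Klhl30 and Klhl38. Klhl31, an adaptor for filamin C in skeletal muscle, had a signal of 10.59, 9.07 and 8.26 in the reference and 10.59, 10.35, 10.22 and 10.71 in Irx3-/-;Irx5+/- hearts. Its signal was 10.03, 11.33 and 10.07 in Irx5-/- hearts and 10.13, 10.76, 11.19 and 10.87 in double mutants. Reference replicate 1 sat among the mutant arrays and replicates 2 and 3 far below them, so that the groups overlapped.

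Klhl31 was higher than the reference by 1.16 ± 0.45 in Irx3-/-;Irx5+/- hearts, 1.17 ± 0.48 in Irx5-/- hearts and 1.44 ± 0.45 in double mutants. These differences are larger than those of Klhl23, but the SD of its reference arrays was 1.18 and the limma adjusted p-values were 0.952, 0.426 and 0.204. Without reference replicate 3 the differences were 0.64, 0.65 and 0.91, and without reference replicate 1 they were 1.80, 1.81 and 2.08. Without replicate 4 of Irx3-/-;Irx5+/- the first was 1.08. The second probe set of Klhl31 differed from the reference by 0.63, 0.59 and 0.80, in the same direction. Among the mutant groups Klhl31 differed by 0.01 to 0.27, with 95% intervals that reached from -0.96 to 1.23.

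Klhl41, which stabilises nebulin in the thin filament, had a signal of 9.41, 7.57 and 6.83 in the reference, 8.94, 8.92, 8.13 and 9.08 in Irx3-/-;Irx5+/- hearts, 8.39, 10.23 and 8.28 in Irx5-/- hearts and 9.68, 8.70, 10.10 and 9.87 in double mutants. The reference ranged more widely than any mutant group, and its replicate 1 lay above all Irx3-/-;Irx5+/- arrays. The differences were 0.83 ± 0.58, 1.03 ± 0.62 and 1.65 ± 0.58 (limma adjusted p 1, 0.559 and 0.246). Without reference replicate 3 they were 0.28, 0.48 and 1.10, and without reference replicate 1 they were 1.57, 1.77 and 2.39. Without replicate 4 of Irx3-/-;Irx5+/- the first was 0.73, and without replicate 2 of Irx5-/- the second was 0.40.

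Klhl30 had a signal of 8.05, 7.69 and 7.18 in the reference and reached its highest value, 9.03, in replicate 2 of Irx5-/-, the array on which Klhl31 and Klhl41 were highest too. Its differences were 0.25, 0.38 and 0.46 (adjusted p 1, 0.703 and 0.589). Without replicate 4 of Irx3-/-;Irx5+/- the first was 0.19, without reference replicate 3 it was 0.02, and without replicate 2 of Irx5-/- the second was -0.13. Klhl38 differed by 0.03, 0.10 and 0.07, and these became -0.05, -0.03 and -0.09 with replicate 3 of Irx3-/-;Irx5+/-, replicate 2 of Irx5-/- or replicate 3 of the double mutant left out. Klhl40, which protects thin filament proteins from degradation, differed by -0.04, -0.05 and -0.17, and its mean over all arrays was in the lower quartile of all named genes. With all arrays, 4 of the 5 muscle members had a positive difference in each mutant group, where 50%, 44.4% and 43.9% of all named genes did, and none passed the test. Without replicate 4 of Irx3-/-;Irx5+/-, 3 of the 5 were positive in that group, with Klhl38 at -0.00. A positive sign was lost when 1 array was left out for Klhl38 in each group and for Klhl30 in Irx5-/-.

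Muscle genes as a whole varied across these arrays. A list of 30 sarcomere genes, 29 of them measured, had a mean (each gene relative to its own average over arrays) of 0.09, -0.63 and -1.62 on the reference arrays, -0.40 to 0.38 in Irx3-/-;Irx5+/-, -0.29 to 0.84 in Irx5-/- and 0.18 to 0.63 in double mutants. All 29 were higher than the reference in each mutant group, with medians of 0.90, 0.92 and 1.16, and 0 passed the adjusted test. The shares of all named genes above 0 were 50%, 44.4% and 43.9%. At an unadjusted limma p under 0.05, 14, 12 and 26 of the sarcomere genes were higher, against 2.85%, 5.99% and 7.9% of all named genes. Without reference replicate 3 these counts were 0, 0 and 10, with medians of 0.33, 0.35 and 0.73, and without reference replicate 1 they were 23, 23 and 28, with 1 gene past the adjusted test in double mutants. The count in Irx5-/- hearts was 0 without their replicate 2 and 7 without reference replicate 2. That in Irx3-/-;Irx5+/- hearts was 5, 9 and 6 without their replicates 1, 2 and 4, with a median of 0.80 without the last. In bulk tissue, fewer muscle cells and less RNA per muscle cell cannot be told apart.

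Klhl31 signal followed the sarcomere mean over the 14 arrays (Pearson r 0.96, Spearman rho 0.93; permutation p 1e-05 for both, the smallest that 100000 permutations can give; adjusted over 6 genes 3e-05 and 6e-05). Without the 2 arrays farthest from the median of the sarcomere mean, reference replicates 2 and 3, r was 0.90. With each group's mean removed it was 0.93 (permutation p 0.00026, adjusted 0.00156), so that the relation was present within the genotypes. Klhl41 gave r 0.93 and rho 0.90 (permutation p 1e-05 and 2e-05, adjusted 3e-05 and 6e-05), 0.88 without those arrays and 0.91 with group means removed (permutation p 0.00233, adjusted 0.00699). Klhl30 gave r 0.77 and rho 0.82 (permutation p 0.0024 and 0.0008, adjusted 0.0048 and 0.0016), 0.77 without those arrays and 0.77 with group means removed (permutation p 0.00834, adjusted 0.0167). Klhl38 (r 0.18, rho 0.14; permutation p 0.545 and 0.639, adjusted 0.547 and 0.639) and Klhl40 (r -0.17, rho -0.26; permutation p 0.547 and 0.375, adjusted 0.547 and 0.45) did not pass.

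For Klhl23 the values were lower. Its pooled r was 0.64 and its rho 0.72. These values carry the very contrast for which it was chosen, so their p-values are not given as a test. Those p-values were still counted in the adjustment over 6 genes. Without the same 2 arrays r was 0.40, and within genotypes, with group means removed, it was 0.13 (permutation p 0.721, adjusted over 6 genes 0.721). The pooled r without replicate 4 was 0.64 for Klhl23, 0.96 for Klhl31, 0.93 for Klhl41, 0.77 for Klhl30, 0.17 for Klhl38 and -0.18 for Klhl40. With the sarcomere mean as a term in the limma fit, Klhl23 stood above the reference by 0.67 ± 0.18, 0.92 ± 0.19 and 0.98 ± 0.20. With the same term Klhl31 stood at 0.20 ± 0.21, 0.16 ± 0.22 and 0.09 ± 0.24, and Klhl41 at -0.38 ± 0.30, -0.24 ± 0.32 and -0.03 ± 0.34.

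**Figure D3:**
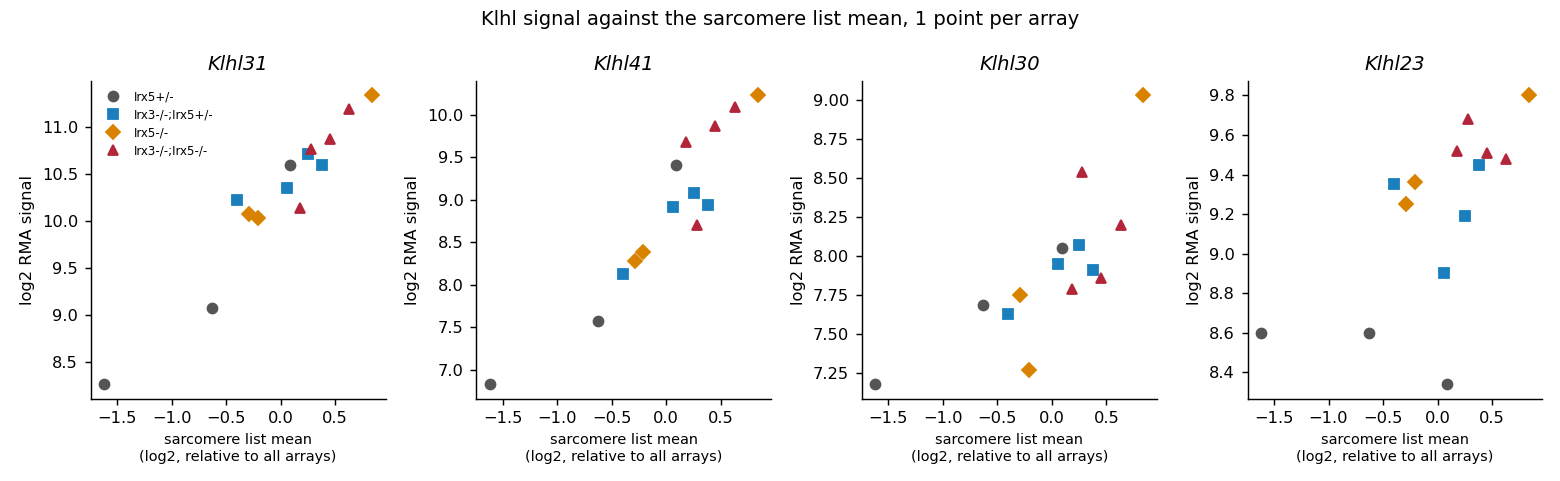
Log2 RMA signal (y axis) of Klhl31, Klhl41, Klhl30 and Klhl23 against the mean of 29 sarcomere genes (x axis, log2 relative to all arrays), 1 point per array with colour and shape by genotype. Klhl31 and Klhl41 lie along a line that all genotypes share (r 0.96 and 0.93), and for Klhl23 r is 0.64 over all arrays and 0.13 with group means removed.

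The WNK pair was Klhl3 and Klhl2, adaptors that hand WNK kinases to Cul3. Klhl3 signal was 7.40, 7.71 and 7.93 in the reference, 7.85, 7.52, 7.77 and 8.28 in Irx3-/-;Irx5+/- hearts, 8.12, 7.61 and 7.43 in Irx5-/- hearts and 7.01, 7.53, 7.15 and 7.11 in double mutants. Double mutant replicates 1, 3 and 4 were below every array of the other groups and replicate 2 was not. Double mutants were lower than Irx3-/-;Irx5+/- by a log2 difference of -0.65 ± 0.19, the smallest p of any Klhl gene in that comparison (limma p 0.00402, adjusted p 0.465). Without replicate 4 of Irx3-/-;Irx5+/- the difference was -0.51. Against Irx5-/- it was -0.52 ± 0.20 (adjusted p 1), against the reference -0.48 ± 0.20 (adjusted p 0.326), and the interaction was -0.69 ± 0.29 (adjusted p 1; -0.55 without replicate 4). Klhl2 differed from the reference by 0.16 to 0.20 in the 3 mutant groups, and the value of Irx3-/-;Irx5+/- was 0.08 without replicate 4.

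Klhl4, an X-linked member, gave the largest negative differences of the family. Its signal was 11.35, 11.65 and 11.28 in the reference, 11.77, 11.24, 11.48 and 11.73 in Irx3-/-;Irx5+/- hearts, 9.89, 10.98 and 10.71 in Irx5-/- hearts and 10.87, 11.39, 9.04 and 10.19 in double mutants. All Irx5-/- arrays lay below all arrays of the first pair of groups, and in the double mutant replicate 2 lay among them. Irx3-/-;Irx5+/- differed from the reference by 0.13 (0.07 without replicate 4), Irx5-/- by -0.90 and double mutants by -1.05 ± 0.42 (limma adjusted p 0.299 for the last). Against Irx3-/-;Irx5+/-, double mutants differed by -1.18 ± 0.39 (adjusted p 0.546; -1.12 without replicate 4) and Irx5-/- by -1.03 ± 0.42 (adjusted p 0.764; -0.97 without replicate 4). Without double mutant replicate 3, the lowest array, the double mutant stood at -0.61 against the reference and at -0.74 against Irx3-/-;Irx5+/-. Without Irx5-/- replicate 1, Irx5-/- stood at -0.58 against the reference.

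Klhl6, known from germinal centre B cells, had a signal of 10.97, 10.65 and 10.06 in the reference, 9.48 to 10.62 in Irx3-/-;Irx5+/- hearts, 9.37 to 10.10 in Irx5-/- hearts and 9.46 to 10.67 in double mutants. It differed from the reference by -0.42, -0.75 and -0.49, with overlapping groups and adjusted p-values of 1, 0.477 and 0.559. Without replicate 4 of Irx3-/-;Irx5+/- the first was -0.53.

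Endothelial markers, like Klhl4 and Klhl6, had lower group means than the reference in Irx5-/- hearts and double mutants. The 10 endothelial and endocardial markers, all measured, had a mean of 0.36 to 0.67 on the reference arrays, 0.05 to 0.57 in Irx3-/-;Irx5+/-, -0.59 to -0.19 in Irx5-/- and -0.92 to 0.20 in double mutants. The 0.57 was that of Irx3-/-;Irx5+/- replicate 4, and the other arrays of its group lay at 0.05 to 0.33, below the reference. All 10 were lower than the reference in Irx5-/- and in double mutants, with medians of -0.81 and -0.86, and 0 passed the adjusted test, though 9 and 10 had an unadjusted p under 0.05 (4.66% and 5.56% of all named genes were lower at that p). Without reference replicate 2 these counts were 6 and 7, and without double mutant replicate 2, 1 marker passed the adjusted test. In Irx3-/-;Irx5+/- hearts 9 of the 10 markers were lower, with a median of -0.16, while Klhl6 differed by -0.42 and Klhl4 by 0.13. Of all named genes, 50% were above 0 there. Without replicate 4 of that group 0 of the 10 were above the reference, and the median was -0.25. The array with the lowest Klhl4, double mutant replicate 3, had the lowest marker mean, -0.92. With the marker mean as a term, an alternative chosen after seeing the data, Klhl4 differed from the reference by 0.47, 0.58 ± 0.26 and 0.51 ± 0.26, and Klhl6 by -0.20, 0.19 and 0.50. The part of endothelial content in the differences of Klhl4 and Klhl6 was not tested beyond this term. Klhl23 with the same term stood at 0.76, 1.17 and 1.26.

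**Figure D4:**
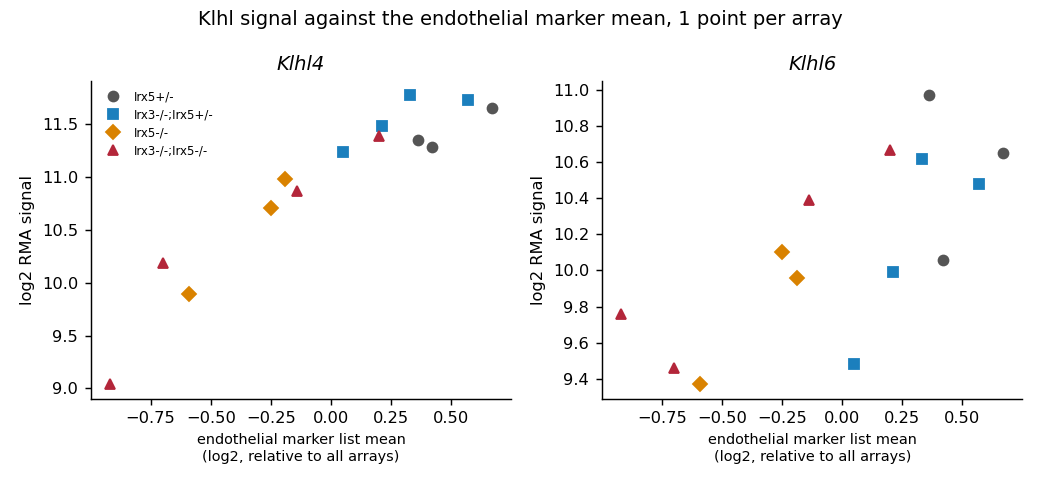
Log2 RMA signal (y axis) of Klhl4 and Klhl6 against the mean of 10 endothelial and endocardial markers (x axis, log2 relative to all arrays), 1 point per array by genotype. The lowest Klhl4 signal, 9.04, is on the array with the lowest marker mean, -0.92.

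The X chromosome carries 4 members, Klhl4, Klhl13, Klhl15 and Klhl34, and the arrays differed in Xist, the RNA that silences an X chromosome in female cells. Xist was 6.12 to 6.57 on 5 arrays and 11.60 to 12.09 on the other 9. The 5 were reference replicate 3, Irx3-/-;Irx5+/- replicate 1, Irx5-/- replicates 1 and 3, and double mutant replicate 3. With Xist as a term Klhl4 stood at 0.10, -0.68 and -1.07 against the reference. Klhl15, which targets a regulatory subunit of the phosphatase PP2A, was 8.17, 7.81 and 7.97 in Irx5-/- hearts and 7.73, 7.58, 7.71 and 7.12 in double mutants, with no overlap. The difference was -0.45 ± 0.16 (limma adjusted p 1) and -0.46 with the Xist term. Of all named genes, 1.98% were lower without overlap in that comparison, and 1 of the 36 Klhl genes was.

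The mitotic members Klhl9, Klhl13, Klhl18, Klhl21, Klhl22 and Klhl42, which direct Cul3 to kinases and other proteins of the dividing cell, stayed near the reference. Their differences ran from -0.21 to 0.18 in Irx3-/-;Irx5+/- (-0.26 to 0.18 without replicate 4), from -0.35 to 0.16 in Irx5-/- and from -0.25 to 0.16 in double mutants, and none passed. Klhl20 and Klhl12, the first an adaptor in autophagy and the second in secretion and Wnt signalling, had positive differences in each mutant group. Those of Klhl12, 0.25, 0.40 and 0.12, became -0.07, 0.08 and -0.20 without reference replicate 1. The first was 0.26 without replicate 4 of Irx3-/-;Irx5+/-. Klhl20 is described although it fell outside the rule for named genes, because of its values: 9.87, 9.64 and 8.35 in the reference against 9.60 to 10.18 on all mutant arrays. Its differences of 0.57, 0.53 and 0.69 (adjusted p 0.98, 0.536 and 0.298) became 0.10, 0.06 and 0.22 without reference replicate 3, the array with the lowest sarcomere mean. The first was 0.59 without replicate 4.

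Klhl24, an adaptor for intermediate filament proteins whose human variants cause skin fragility and cardiomyopathy, was 10.75, 10.62 and 10.82 in the reference and 11.25, 11.56 and 10.86 in Irx5-/- hearts. The difference was 0.49 ± 0.17 with no overlap and had the smallest p in that comparison among the 35 members tested (limma p 0.0139, adjusted p 0.368). In Irx3-/-;Irx5+/- hearts and double mutants Klhl24 differed by 0.18 (0.14 without replicate 4) and 0.21.

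The members with the largest differences not yet given were these. In Irx3-/-;Irx5+/- against the reference, Klhl13 stood at -0.21 and Klhl5 at -0.16 (-0.26 and -0.18 without replicate 4), and in Irx5-/- Klhl13 stood at -0.35. Between double mutants and Irx3-/-;Irx5+/-, Klhl41 differed by 0.82, Klhl31 by 0.27 and Klhl15 by -0.26 (0.92, 0.35 and -0.22 without replicate 4; limma adjusted p 0.725, 0.878 and 0.691). Between double mutants and Irx5-/-, Klhl41 differed by 0.62, Klhl13 by 0.29, Klhl6 by 0.26 and Klhl7 by -0.31 (adjusted p 1 for each). Between Irx5-/- and Irx3-/-;Irx5+/-, Klhl24 differed by 0.31, Klhl28 by 0.22, Klhl6 by -0.33 and both Klhl14 and Klhl33 by -0.24 (0.35, 0.19, -0.22, -0.23 and -0.29 without replicate 4; adjusted p 0.782, 0.832, 0.834, 0.779 and 0.779). The interaction was -0.90 for Klhl31, 0.68 for Klhl6, 0.50 for Klhl13 and 0.27 for Klhl32 (adjusted p 1 for each; -0.82, 0.79, 0.55 and 0.32 without replicate 4). None of these values passed the test.

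Over the family, the median difference from the reference was 0.10, 0.01 and -0.02, against 0.00, -0.03 and -0.03 over all named genes, and 24, 18 and 17 of the 36 members were above 0 (50%, 44.4% and 43.9% of all named genes). Without replicate 4 the median of the family in Irx3-/-;Irx5+/- was 0.06, with 23 members above 0. Leaving out Klhl23, the 35 other members ranged from -0.42 to 1.16 in Irx3-/-;Irx5+/-, from -0.90 to 1.17 in Irx5-/- and from -1.05 to 1.65 in double mutants. In all 3 comparisons 23 of the 36 members (63.9%) stayed within 0.25 log2 units of the reference, as did 61.8% of all named genes. Of these 23, Klhl1, known from neurons, Klhl10, from spermatids, Klhl14, Klhl33 and Klhl40 had a mean signal in the lower quartile of all named genes.

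At a limma adjusted p under 0.05, none of the 35 other members passed in any comparison. In Irx3-/-;Irx5+/- and Irx5-/- against the reference 0% of the 19931 genes passed, and in double mutants 4 did (0.0201%). Klhl23 was among them, which is no finding since this contrast chose it, and it no longer passed once any 1 of the 7 arrays was left out. Of all genes, 0.00502% passed between double mutants and Irx3-/-;Irx5+/- hearts, and 0% in each of the other comparisons. At an unadjusted p under 0.05 and leaving out Klhl23, the members that were higher were Klhl31 alone in Irx3-/-;Irx5+/- (2.85% of all genes), Klhl24 and Klhl31 in Irx5-/- (5.99%) and Klhl20, Klhl31 and Klhl41 in double mutants (7.9%). Klhl3 and Klhl4 were lower in double mutants (5.56%). Groups did not overlap with the reference for Klhl24 and Klhl26, which were higher in Irx5-/- hearts (6.71% of all genes), and for Klhl1 and Klhl4, which were lower there (9.52%). These counts are close to or below the background shares. In Irx5-/- against Irx3-/-;Irx5+/-, Klhl10 and Klhl4 were lower without overlap (5.43% of all genes).

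**Figure D5:**
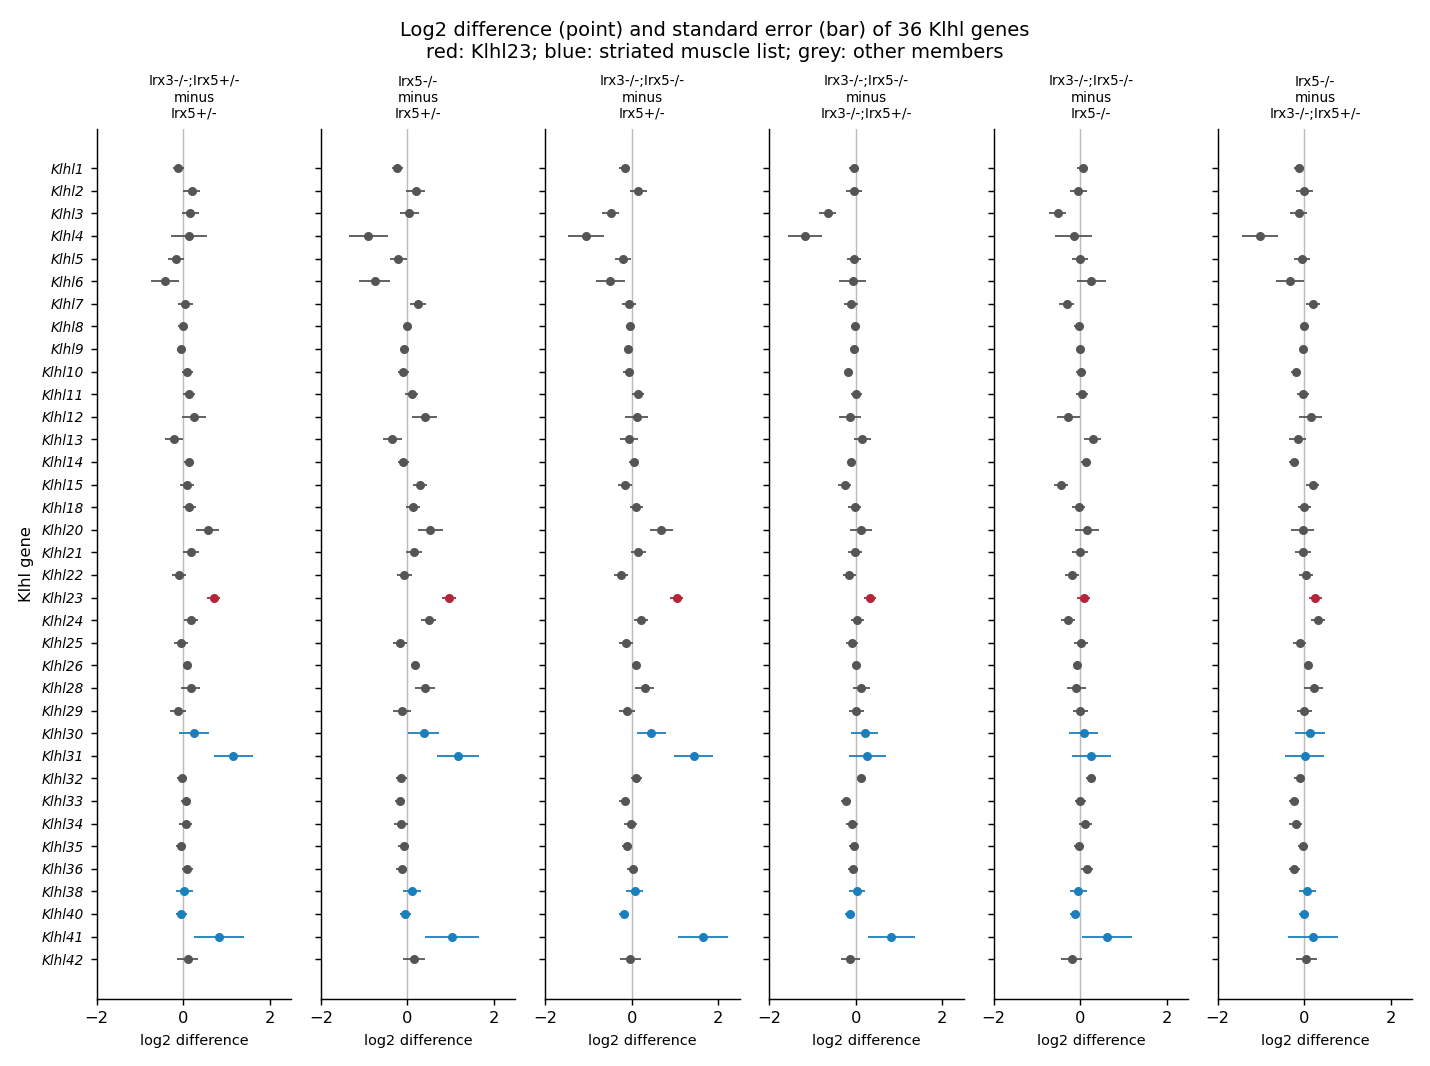
Log2 difference (x axis, points) with SE (bars) of the 36 Klhl genes (y axis, by number) in the 3 comparisons with the Irx5+/- reference and the 3 between mutant groups. Against the reference, Klhl23 (red) has short bars and stands at 0.71 to 1.04. Klhl31 and Klhl41 (blue, muscle list) lie at 0.83 to 1.65 there with long bars, Klhl4 reaches -1.05, and most other members lie near 0. Klhl4 is at -1.18 in double mutants against Irx3-/-;Irx5+/-.

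The SD within groups had a median of 0.23 over the members and 0.19 over all named genes. It ran from 0.08 to 0.87 among the members and was 0.20 for Klhl23.

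The rest of the Cul3 ligase was measured too. Of 26 fixed genes (Cul3 itself, its RING partner Rbx1, the NEDD8 machinery and the COP9 signalosome that removes NEDD8), 24 were found and 0 passed the adjusted test against the reference in any mutant group. At an unadjusted limma p under 0.05, 2, 6 and 6 were higher and 2, 0 and 0 lower, and their medians were 0.07, 0.15 and 0.15. Over all named genes 2.85%, 5.99% and 7.9% were higher at that p, and 2.22%, 4.66% and 5.56% were lower. The count of 6 in Irx5-/- became 2 without reference replicate 2 or 3, 4 without Irx5-/- replicate 1 and 3 without Irx5-/- replicate 2. It was 6 without reference replicate 1 and 7 without Irx5-/- replicate 3. The count of 6 in double mutants stayed at 5 to 7 whichever array of the groups compared was left out. In Irx3-/-;Irx5+/- without replicate 4, 1 was higher, 1 was lower and the median was 0.04. In Irx3-/-;Irx5+/- hearts the smallest p-values were those of the signalosome subunits Cops7b, at -0.48 ± 0.16, and Cops5, at 0.32 ± 0.11 (limma adjusted p 0.844 and 0.906). Cops4, a signalosome subunit, was higher by 0.67 ± 0.18 in Irx5-/- hearts (adjusted p 0.254) and by 0.54 ± 0.16 in double mutants (adjusted p 0.19). Rbx1 was higher by 0.37 ± 0.11 in double mutants (adjusted p 0.19), and Dcun1d3, of the NEDD8 machinery, by 0.43 ± 0.14 in Irx5-/- hearts (adjusted p 0.36). Between mutant groups the genes with the smallest p were Cops6 (0.42) and Rbx1 (0.27) in double mutants against Irx3-/-;Irx5+/-, Glmn and Cops8 (both -0.29) in double mutants against Irx5-/-, and Cand1 (0.31) and Cops7b (0.38) in Irx5-/- against Irx3-/-;Irx5+/-. For the interaction they were Cops4 (-0.48) and Cops7b (0.44). Of 15 other BTB-Kelch adaptors 13 were found, and their medians against the reference were -0.01, 0.18 and 0.12. The 24 known substrates and partners of Klhl proteins were all found, with medians of 0.03, 0.02 and 0.07, and 0 of either list passed. Unadjusted, 0, 1 and 1 of the adaptors were higher and none lower, and of the substrates 1, 1 and 1 were higher and 0, 1 and 2 lower. Without replicate 4 the medians of the adaptors and substrates in Irx3-/-;Irx5+/- were -0.05 and 0.02, and 0 of either list had such a p. Nrap, a scaffold of growing myofibrils that Klhl41 regulates, was highest among the substrates in each comparison with the reference, at 0.61, 0.82 and 0.75.

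Across the 14 arrays the 5 genes with the highest Pearson r to Klhl23 were Sinhcaf (0.91), Fdft1 (0.89), Rars (0.89), Cenpp (0.88) and Mrpl13 (0.88). These values were picked from 19931 genes and include the contrast that chose Klhl23, so they are a description over 14 arrays. Sinhcaf is a subunit of the Sin3 histone deacetylase complex, Fdft1 makes squalene, Rars charges transfer RNA with arginine, Cenpp belongs to the centromere and Mrpl13 to the mitochondrial ribosome. With group means removed, r was 0.69, 0.28, 0.75, 0.77 and 0.64 in that order. Among the members, Klhl31 (0.63), Klhl26 (0.58) and Klhl21 (0.57) were most like Klhl23 over all arrays, and with group means removed they gave 0.07, 0.23 and 0.82. Sinhcaf signal was 10.81 to 11.05 in the reference and 10.94 to 11.81 on the mutant arrays, and Fdft1 signal was 9.32 to 9.61 in the reference and 9.82 to 10.66 on the mutant arrays, with no overlap for Fdft1.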

How the data were processed

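Hearts of 4 Irx genotypes at E12.5 were profiled on Affymetrix Mouse Gene 1.0 ST arrays (14 arrays). Per the labels, 1 ng of total RNA was amplified and labelled. Each probe set has a log2 intensity, which the authors deposited after RMA per the submitters' processing notes, which also name affy and limma. The sources used here give neither their versions nor the genome build of the probe annotation. RMA quantile-normalises all arrays together, so a shift shared by most genes is removed. The number of arrays, not a read depth, limits how precise a value is.

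Of 28763 probe sets, 21776 had 1 gene symbol, 1592 several and 5395 none. The probe set with the highest mean was kept per gene, which left 19931 named genes. The main fit was limma (3.58.1, R 4.3.3) on the 14 arrays with 1 coefficient per genotype (10 residual and 3.50 prior degrees of freedom), 2-sided, with Benjamini-Hochberg adjustment over all named genes and a threshold of 0.05. It was checked on simulated data. Errors of differences are SE and errors of group means are SD. Correlations used 100000 permutations of the arrays.

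The members and the lists were chosen with earlier results of these data known. Text names Klhl23, the 5 muscle members, the 3 members with the largest difference per direction and comparison, called or non-overlapping members, the genes and members most like Klhl23, its 3 flanking genes per side, 2 Cul3 genes per comparison and Irx3 and Irx5. Nrap, Klhl20 and Fastkd1 were named after their values were seen. A planned order of members by protein identity was not run. Promoters come from RefSeq (GRCm38.p6). Alternatives changed the intensity filter (lower quartile of mean intensity left out), scaling, probe set rule, variance model, array weights, arrays in the fit, replicate block, sarcomere, Xist and endothelial terms, and left out each array in turn. Replicate numbers did not pair the arrays: deviations of 19 same-numbered pairs correlated at -0.18 to 0.19.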

Additional observations from a re-analysis of the deposited data

Results flagged for a closer look

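In 3 of the 72 sets of values tested (36 members in both groups of 4 arrays), 1 array stood apart from the other 3 of its group, and about 3.6 such sets would be met by chance at 1 in 20. Klhl41 signal in replicate 3 of Irx3-/-;Irx5+/- was 8.13, with the others at 8.92 to 9.08, and that array had the lowest sarcomere mean of its group, -0.40. Klhl25 in replicate 4 of the double mutant was 8.04, with the others at 8.37 to 8.41. Klhl42 in replicate 2 of the double mutant was 8.49, with the others at 7.69 to 7.80. The interaction of Irx3 loss and Irx5 loss passed the adjusted test for 0 of the 35 members tested.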

How the results depend on the processing

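The 3 differences of Klhl23 from the reference were positive under every alternative tried. The endothelial term, chosen after seeing the data, moved those of Irx5-/- and double mutants most, to 1.17 and 1.26. The difference of Klhl23 between double mutants and Irx5-/- ran from -0.03 to 0.24 when 1 array was left out, and it was reversed, at -0.03, without Irx5-/- replicate 3. Klhl23 was the only called member (double mutant against reference, limma), and that count of 1 became 0 with median centring, with the mean of probe sets, with trended and robust variances, with the replicate block, with the sarcomere, Xist or endothelial term, and without any 1 of the 7 arrays compared (0 to 0). Fewer arrays were in each of those last fits. For the other settings the cause was not tested. The correlation of Klhl23 with the sarcomere mean was 0.40 without the 2 farthest arrays, 0.13 with group means removed and 0.55 to 0.81 without 1 array. Same-numbered arrays were not paired by label or data: 2 of 14 arrays correlated best with their own number, 4 of 19 pairs exceeded 0.1, and with the replicate block Klhl23 differed from the reference by 0.72, 0.96 and 1.05. Of the other summary values under an alternative, 338 kept their direction and side of the threshold, and of single-member values 4505 did so and 80 moved by more than 1 SD. The low-intensity filter gives no value for members below its floor.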
